A study of Mus musculus with 2 samples.

Results

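The genes described here are 41 listed genes of red cells and of heme, grouped as globins, erythroid regulators, membrane and skeleton proteins, cytosolic red cell enzymes, heme synthesis, and iron and heme handling. They were chosen by symbol, taking every probe set that the platform annotation pairs with exactly 1 symbol from the list. Of the 41 genes, 40 had such a probe set, out of 18193 genes on the array. Ahsp had none and was not analysed here.

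The material was RNA from cells of mouse embryos that carry the transgene Col2a1-Venus on the genetic background C57Bl/6. Venus is a modified green fluorescent protein, and per the series description it labels chondrocytes, the cells of cartilage, through the gene of cartilage collagen. The groups were Venus-positive cells and Venus-negative cells, separated on a cell sorter from animals with the same transgene, with 1 one-colour Affymetrix Mouse Genome 430 2.0 array each. No treatment is named. What age and number the embryos had, whether they were pooled and how the sort was gated is not given in the sources used here.

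With 1 array per group there was no replicate error and no test, and each difference below describes these 2 arrays. Values are MAS5 signals, linear intensities with 1 value per probe set. The floor, which stands in for detection calls, was the median signal of 22.5, and a gene counted as measured if a probe set reached it on at least 1 array. Folds compare the Venus-positive with the Venus-negative signal, and "at least" marks a fold whose dimmer side lay below the floor. The Venus-positive array was dimmer as a whole, with a median log2 ratio of -0.33 over 11789 measured genes, or 1.26-fold. "Relative" log2 ratios have this median subtracted. All 8 cartilage markers of a list were at least 2-fold higher in Venus-positive cells, beside 2.79% of all measured genes. Their log2 ratios were 2.24 to 6.31. This list was chosen with earlier results of these data known, so it is not an independent check of the sort.

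Red cells form in the embryo first in the yolk sac and then in the fetal liver. Yolk sac red cells carry embryonic hemoglobin, built from zeta-type (Hba-x) and epsilon-type and beta-h1 (Hbb-y, Hbb-bh1) chains, and later cells carry adult hemoglobin. Transcription factors such as Gata1 and Klf1 switch on globin, membrane and heme genes together as the cells mature. Heme itself is made by a short chain of enzymes that every cell with mitochondria uses at a low rate, and red cell precursors run at a high rate through their own first enzyme, Alas2.

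Most genes of the erythroid lineage were lower in Venus-positive cells, by up to 17.6-fold for the anion exchanger gene Slc4a1. Genes of heme and iron that most cells use had log2 ratios between -1.73 and 0.55. Of the 37 measured members, 22 were at least 2-fold lower on the deposited scale, where 11.6% of all measured genes were, and 0 were at least 2-fold higher, where 2.79% of all genes were. Relative to the median gene, 16 were at least 2-fold lower, against a background of 6.45%, and again 0 were 2-fold higher, against 5.06%. The median log2 ratio of the measured members was -1.23, with a range of -4.14 to 0.55, beside -0.33 for all measured genes. For 13 of the 37 the gene was measured only because its Venus-negative signal passed the floor, so that a lower value was built into their selection. Among the 24 members at or above the floor on both arrays, 13 were at least 2-fold lower, and 9.84% of all genes of that kind were.

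**Figure D1:**
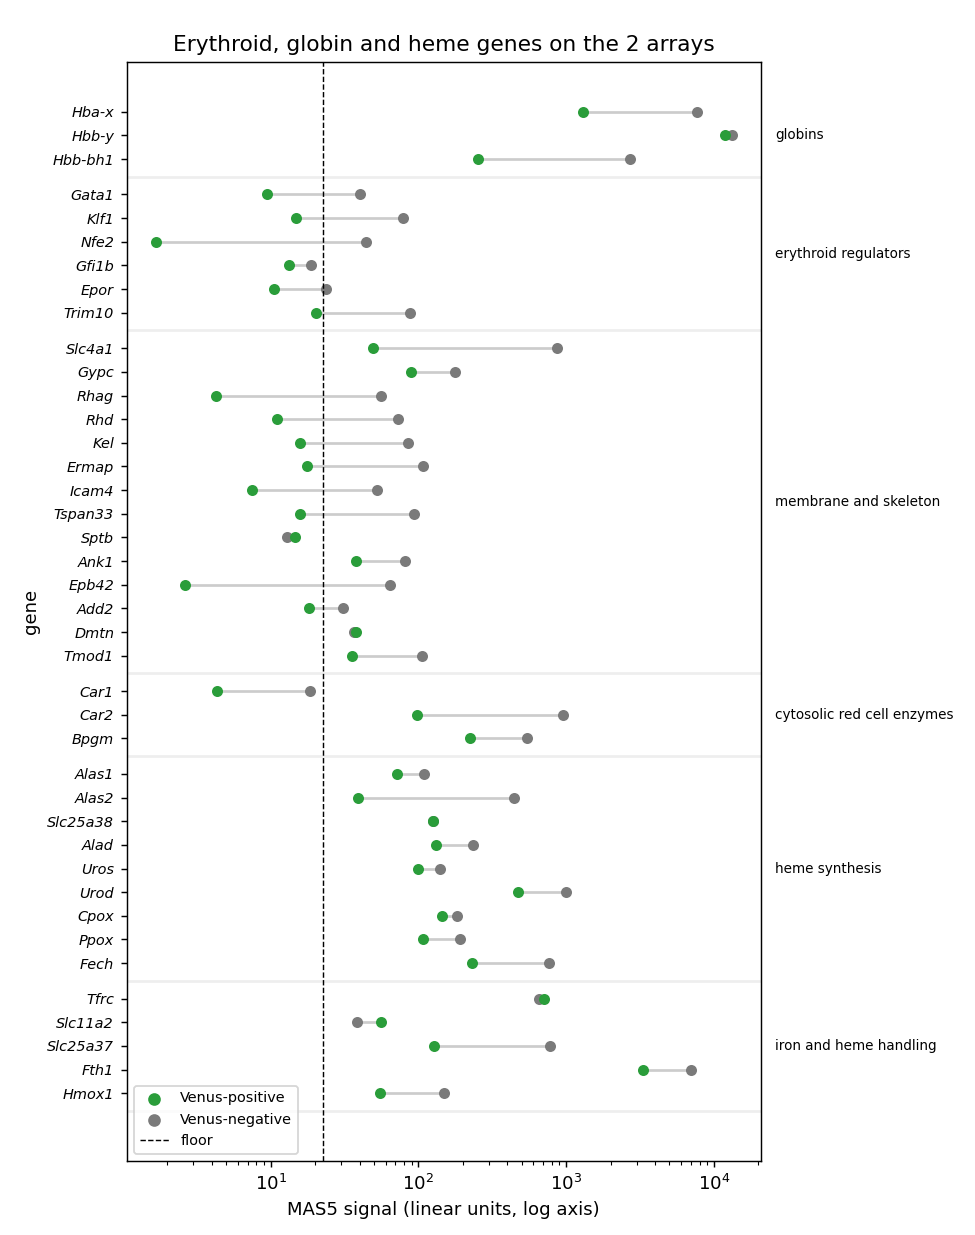
MAS5 signal (linear units on a log axis) of each of the 40 members with a probe set, Venus-positive in green and Venus-negative in grey, by role, with the floor of 22.5 as a dashed line. The Venus-positive point lies left of the Venus-negative one for most genes, far left for Slc4a1, Alas2, Car2 and Hbb-bh1, while the points of Hbb-y, Slc25a38, Dmtn and Tfrc nearly coincide.

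The 3 embryonic globin chains differed from each other. Hbb-bh1, a beta-type chain of yolk sac red cells, had a signal of 253 in Venus-positive cells and 2709 in Venus-negative cells, 10.7-fold lower. Its 3 probe sets gave 8.99- to 10.7-fold, so they placed the gene alike. Hba-x, the embryonic alpha-type chain, was at 1309.8 in Venus-positive cells and 7742 in Venus-negative cells, 5.91-fold lower on its single probe set. Hbb-y, the other embryonic beta-type chain, was at 11912 in Venus-positive cells and 13190.2 in Venus-negative cells, 1.11-fold lower. The probe set of Hbb-y that does not end in _x_at, a suffix for probes that can match several transcripts, gave 6817 in Venus-positive cells and 10111 in Venus-negative cells, 1.48-fold lower. Relative to the median gene, Hbb-bh1 and Hba-x had log2 ratios of -3.09 and -2.23, and Hbb-y one of 0.18. The side of Hbb-y turned with the probe set, since the one without the suffix had a log2 ratio of -0.57, below the median gene. Hbb-y and Hbb-bh1 lie on 1 chromosome with 0 protein-coding genes between them in the RefSeq annotation.

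The signals of Hbb-y were near the upper end of both arrays, whose highest non-control signals were 13442 for Venus-positive and 14853 for Venus-negative cells. A compression of ratios at such signals was not tested.

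**Figure D2:**
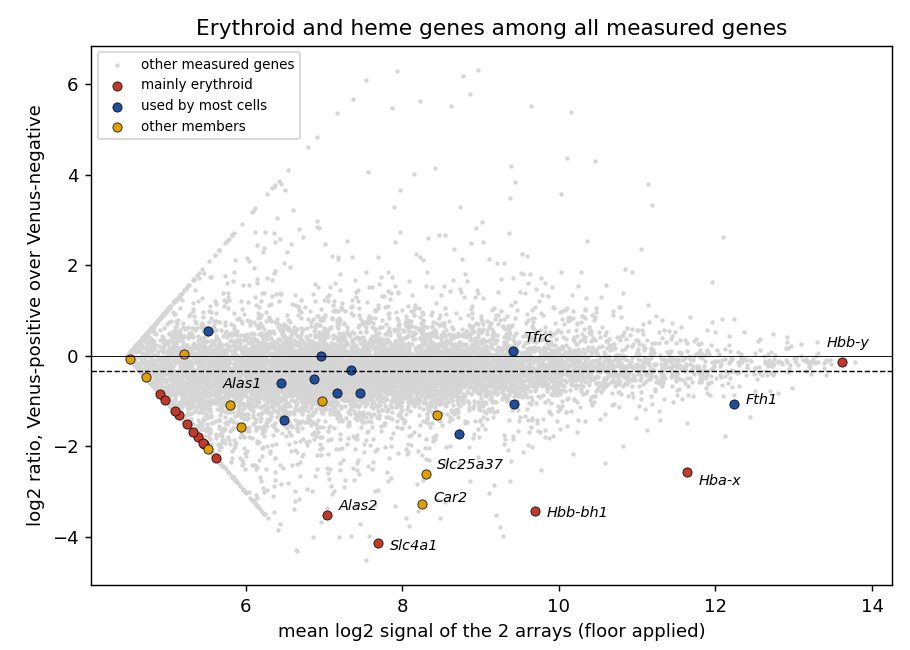
Venus-positive over Venus-negative signal as a log2 ratio against the mean log2 signal of both arrays, with the floor applied, for all 11789 measured genes in grey and the 37 measured members in colour by class; the dashed line is the median of all measured genes. Slc4a1, Alas2, Hbb-bh1 and Car2 lie at log2 ratios of -4.14 to -3.27, Hbb-y lies at -0.15 at the far right, and the red points along the lower left edge are genes whose Venus-positive signal was set to the floor.

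Erythroid regulators were dim on both arrays. Klf1, the Kruppel-like factor that activates beta globin, was at 14.9 in Venus-positive cells and 78.5 in Venus-negative cells, at least 3.49-fold lower. Trim10, a RING finger protein of erythroid maturation, was at 20.3 in Venus-positive cells and 87.1 in Venus-negative cells, at least 3.87-fold lower. These were the 2 of 5 measured regulators past 2-fold on either scale, beside 11.6% of all measured genes as deposited and 6.45% relative to the median gene. Gata1, the zinc finger factor required for red cell formation, was at 9.45 in Venus-positive cells and 40.4 in Venus-negative cells, at least 1.79-fold lower. Nfe2, a leucine zipper factor that acts on globin genes and in platelet formation, was at 1.67 in Venus-positive cells and 44.1 in Venus-negative cells, at least 1.96-fold lower. Epor, the erythropoietin receptor, was at 10.5 in Venus-positive cells and 23.7 in Venus-negative cells, barely above the floor. Gfi1b, a repressor of erythroid and platelet precursors, was below the floor on both arrays, at 13.2 in Venus-positive cells and 18.7 in Venus-negative cells. The Venus-positive signal of all 6 regulators lay below the floor, so each of these folds is a lower bound. A lower value was thus built into the selection of the 5 that were measured.

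Among the proteins of the red cell membrane and its skeleton, 10 of the 13 that were measured were at least 2-fold lower. Of these, 7 were so also relative to the median gene, and 0 of the 13 were 2-fold higher. Of all measured genes, 11.6% were at least 2-fold lower and 6.45% relative to the median gene. In 8 of the 13 the Venus-positive signal lay below the floor, so that a lower value was built into their selection. Slc4a1, the band 3 anion exchanger, was at 49.2 in Venus-positive cells and 867 in Venus-negative cells, 17.6-fold lower, the largest fold among the members measured on both arrays. Its other measured probe set gave 15.2-fold. Carriers of blood group antigens followed with lower bounds, since their Venus-positive signals were below the floor. Ermap, which carries the Scianna group in humans, was at 17.6 in Venus-positive cells and 107 in Venus-negative cells, at least 4.76-fold lower. Kel, the Kell endopeptidase, was at 15.7 in Venus-positive cells and 85.3 in Venus-negative cells, at least 3.79-fold lower. The Rhesus complex genes Rhd, at 11.0 in Venus-positive cells and 72.5 in Venus-negative cells, and Rhag, at 4.26 in Venus-positive cells and 56.1 in Venus-negative cells, were at least 3.22-fold and 2.49-fold lower. Icam4, the Landsteiner-Wiener adhesion protein, was at 7.47 in Venus-positive cells and 52.7 in Venus-negative cells, at least 2.34-fold lower. All 5 carriers lay above the floor in Venus-negative cells and below it in Venus-positive cells.

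The spectrin-based skeleton, which lends the red cell its elasticity, was less uniform. Epb42, the band 4.2 protein that ties band 3 to ankyrin, was at 2.63 in Venus-positive cells and 64.2 in Venus-negative cells, at least 2.85-fold lower. Tmod1, which caps the short actin filaments, was at 35.7 in Venus-positive cells and 106 in Venus-negative cells, 2.97-fold lower. Ank1, the erythroid ankyrin, was at 38.0 in Venus-positive cells and 81.2 in Venus-negative cells, 2.14-fold lower, within 2-fold relative to the median gene. Its other measured probe set gave at least 1.35-fold. Gypc, glycophorin C, found also outside red cells, was at 89.0 in Venus-positive cells and 177 in Venus-negative cells, 1.99-fold lower. Add2, beta adducin, was at 18.2 in Venus-positive cells and 31.0 in Venus-negative cells. Dmtn, dematin, which bundles actin, was level at 37.7 in Venus-positive cells and 36.8 in Venus-negative cells. Sptb, beta spectrin, was below the floor on both arrays for both of its probe sets. Tspan33, a tetraspanin of erythroid precursors, was at 15.8 in Venus-positive cells and 93.6 in Venus-negative cells, at least 4.16-fold lower. Its 3 measured probe sets were all below the floor in Venus-positive cells, with lower bounds of 1.38-fold to 4.16-fold.

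The cytosolic enzymes were lower where they were measured. Car2, carbonic anhydrase 2, a red cell enzyme that osteoclasts and other cells also use, was at 98.3 in Venus-positive cells and 949 in Venus-negative cells, 9.65-fold lower. Bpgm, which makes the bisphosphoglycerate that lowers the oxygen affinity of hemoglobin, was at 222 in Venus-positive cells and 546 in Venus-negative cells, and its 3 probe sets gave 2.46- to 3.35-fold lower signals. Car1, carbonic anhydrase 1, was below the floor on both arrays, at 4.36 in Venus-positive cells and 18.4 in Venus-negative cells.

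Heme synthesis genes differed by step. The pathway has 2 genes for its opening enzyme, aminolevulinate synthase. Alas2, the form of red cell precursors, was at 38.8 in Venus-positive cells and 444 in Venus-negative cells, 11.4-fold lower. Alas1, the form of other cells, was at 71.2 in Venus-positive cells and 108 in Venus-negative cells, 1.52-fold lower, with a relative log2 ratio of -0.28. Slc25a38, which brings glycine into mitochondria for this step, was level at 125 in both fractions. The middle enzymes stayed within 2-fold or close to it. Alad, which joins aminolevulinate pairs, was at 132 in Venus-positive cells and 233 in Venus-negative cells, 1.76-fold lower, and Uros, which closes the ring, was at 98.7 in Venus-positive cells and 140.3 in Venus-negative cells, 1.42-fold lower. Urod, the decarboxylase that follows, was at 476 in Venus-positive cells and 997 in Venus-negative cells, 2.10-fold lower, with 1.69-fold from its other probe set. Cpox, at 146 in Venus-positive cells and 182 in Venus-negative cells, was 1.25-fold lower, like the median gene.

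The last steps lie inside mitochondria. Ppox, which oxidises the ring to protoporphyrin, was at 108 in Venus-positive cells and 192 in Venus-negative cells, 1.78-fold lower. Fech, ferrochelatase, which inserts iron, was at 232 in Venus-positive cells and 771 in Venus-negative cells, 3.32-fold lower, and its 3 measured probe sets ran from 2.38-fold to 4.16-fold. Of the 9 heme synthesis genes, 3 were thus at least 2-fold lower (Alas2, Fech and Urod), beside 11.6% of all measured genes. Alas2 and Fech were so also relative to the median gene, beside 6.45% of all. All 9 were at or above the floor on both arrays, so none of these folds is a bound. The median log2 ratio of the 9 was -0.82.

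**Figure D3:**
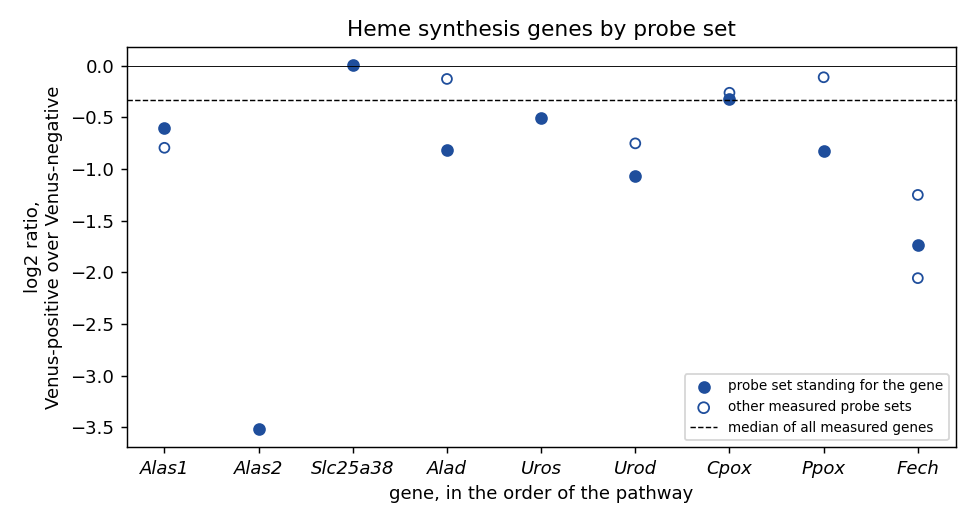
Venus-positive over Venus-negative signal as a log2 ratio for the 9 heme synthesis genes in pathway order, with the probe set standing for each gene filled and its other measured probe sets open; the dashed line is the median of all measured genes. Alas2 at -3.52 and Fech at -1.73 lie lowest, and Slc25a38 lies at 0.01.

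Iron and heme handling held members on both sides of 0. Slc25a37, mitoferrin 1, which carries iron into the mitochondria of erythroid precursors, was at 128 in Venus-positive cells and 775 in Venus-negative cells, 6.07-fold lower. Hmox1, heme oxygenase 1, which breaks heme down and is abundant in macrophages, was at 55.0 in Venus-positive cells and 148 in Venus-negative cells, 2.69-fold lower. Fth1, the ferritin heavy chain that stores iron, was at 3320.1 in Venus-positive cells and 6987 in Venus-negative cells, 2.10-fold lower, and its other probe set gave 1.63-fold. Tfrc, the transferrin receptor through which cells take up iron, was at 705 in Venus-positive cells and 658 in Venus-negative cells, 1.07-fold higher. Its other measured probe set lay near the floor, at 21.2 in Venus-positive cells and 25.8 in Venus-negative cells. Slc11a2, the divalent metal transporter, was at 55.7 in Venus-positive cells and 38.1 in Venus-negative cells, 1.46-fold higher, but its 3 measured probe sets ran from -0.85 to 0.55 on the log2 scale, so its direction is not settled. Of 17 members with several measured probe sets, 3 had them on both sides of 0, namely Dmtn, Tfrc and Slc11a2.

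The members were then read by where they are known to act. Of 18 mainly erythroid members, 15 were measured, with a median log2 ratio of -1.80. Of these 15, 12 were at least 2-fold lower, beside 11.6% of all measured genes. Relative to the median gene 10 were, beside 6.45%. A Venus-positive signal below the floor was found for 10 of the 15. The median thus includes bounds, and a lower value was built into the selection of these 10. Of the 5 at or above the floor on both arrays, 4 were at least 2-fold lower, beside 9.84% of all genes of that kind. Their median was -3.42. All 12 members used by most cells were measured on both arrays, 4 were at least 2-fold lower (Fech, Hmox1, Fth1 and Urod) and 2 relative to the median gene, with a median of -0.71. The difference between both classes has no test, and only the mainly erythroid class held members that passed the floor through Venus-negative cells alone. In the 5 mainly erythroid members that both arrays measured, the Venus-positive signal was 5.68% of the Venus-negative signal for Slc4a1, 8.74% for Alas2, 9.34% for Hbb-bh1, 16.9% for Hba-x and 90.3% for Hbb-y. Hbb-y stood apart from the other 4, whose shares ran from 5.68% to 16.9%. Its share is that of a probe set ending in _x_at with signals near the upper end of both arrays. The Hbb-y probe set without that suffix was 1.48-fold lower. In bulk RNA, fewer red cells and less RNA of these genes per cell cannot be told apart, and carry-over of red cells or of their RNA into the Venus-positive fraction was not tested.

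Promoters of the mainly erythroid members shared letters that the choice of members had not used. GATA factors bind short sites of the letters AGATAA, in which the leading A may be T and the last A may be G. These 4 spellings were searched on both strands in the 250 bases before each RefSeq start (build GRCm38.p6), where 28 of the 41 members had an entry. At least 1 match was found for 12 of 13 mainly erythroid members (92.3%), for 2 of 9 members used by most cells (22.2%) and for 8039 of 27025 genes of the table (29.7%). Per window, 26.5% of the 32851 windows held a match. The mainly erythroid member with no match in its window was Gata1. Genes with several starts, 5 of the members among them, had more than 1 window, and the 2 matches of Cpox overlapped by 1 base. For the CACCC box only 1 spelling was searched, CCACACCC, found for 0 of the 28 members and for 3.68% of all genes. The 0 holds for this spelling and does not mean that a CACCC box is absent. The shorter letters CACCC were not searched, and they occur before the starts of Hba-x, Hbb-y, Klf1 and Kel. How often the shorter letters occur over all genes was not counted. A match describes these letters and was not tested as a bound site.

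The 170 bases before the start are shown for Hba-x and Hbb-y, the globins with an entry. The Alas2 and Alas1 pair, whose ratios differ, is also shown. So are Klf1, Rhag and Kel, which passed 2-fold as deposited, with Venus-positive signals below the floor. Relative to the median gene, Rhag did not pass 2-fold. Others that passed 2-fold as deposited, such as Ermap, Rhd, Icam4, Epb42 and Trim10, are not shown, nor is Gata1, which had no match. The stretches shown run 5′ to 3′ on the gene's own strand, with GATA letters of either strand in capitals. Coordinates are in GRCm38.p6, from RefSeq.
Hba-x, chr11:32276430-32276599, + strand: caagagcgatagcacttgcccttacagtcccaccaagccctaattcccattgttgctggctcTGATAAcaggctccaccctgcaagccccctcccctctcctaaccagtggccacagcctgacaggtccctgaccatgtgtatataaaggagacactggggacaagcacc
Hbb-y, chr7:103853208-103853377, - strand: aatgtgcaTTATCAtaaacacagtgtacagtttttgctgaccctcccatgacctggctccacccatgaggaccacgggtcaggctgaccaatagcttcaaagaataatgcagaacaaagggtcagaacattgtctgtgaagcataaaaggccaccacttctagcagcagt
Klf1, chr8:84901812-84901981, + strand: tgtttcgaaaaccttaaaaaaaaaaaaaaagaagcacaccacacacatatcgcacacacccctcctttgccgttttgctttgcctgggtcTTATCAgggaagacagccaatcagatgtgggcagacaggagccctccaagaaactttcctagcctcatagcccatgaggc
Rhag, chr17:40810979-40811148, + strand: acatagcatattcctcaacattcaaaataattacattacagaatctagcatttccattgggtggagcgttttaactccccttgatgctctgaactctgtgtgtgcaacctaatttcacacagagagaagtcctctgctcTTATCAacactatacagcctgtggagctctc
Kel, chr6:41704326-41704495, - strand: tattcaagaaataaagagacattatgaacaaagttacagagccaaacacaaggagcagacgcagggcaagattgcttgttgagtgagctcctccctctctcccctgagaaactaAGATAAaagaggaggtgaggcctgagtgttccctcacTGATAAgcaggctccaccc
Alas2, chrX:150547247-150547416, + strand: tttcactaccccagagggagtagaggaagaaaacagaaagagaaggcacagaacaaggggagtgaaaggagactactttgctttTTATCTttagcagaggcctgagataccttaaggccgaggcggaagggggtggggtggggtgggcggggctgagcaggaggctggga
Alas1, chr9:106247955-106248124, - strand: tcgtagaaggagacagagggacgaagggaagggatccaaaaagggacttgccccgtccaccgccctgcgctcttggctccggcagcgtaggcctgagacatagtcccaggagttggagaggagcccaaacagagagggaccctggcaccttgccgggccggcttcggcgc
Kel carried 2 matches, 56 and 19 bases before its start, and Rhag 1 match 31 bases before. The matches of Klf1 and Alas2 lay 80 and 86 bases before the start, that of Hba-x 108 and that of Hbb-y 162. Hba-x had a further match 234 bases before its start, outside the stretch shown. Alas1 had none in the stretch shown. Hbb-y carried a match, and its 3 probe sets were 1.11- to 1.48-fold lower in Venus-positive cells. A link between matches and ratios was not tested.

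Other genes of red cell formation were taken from a list beyond the members. Of 39 listed, 28 were measured, with a median log2 ratio of -0.69. At least 2-fold lower were 10, and 1 was at least 2-fold higher, beside 11.6% and 2.79% of all measured genes. Relative to the median gene, 9 were 2-fold lower and 2 were 2-fold higher, beside 6.45% and 5.06%. In 5 of the 28 the Venus-positive signal lay below the floor, so that a lower value was built into their selection. The higher one on the deposited scale was Hbb-b2, an adult beta globin named after its values were seen. It was at 148 in Venus-positive cells and 69.7 in Venus-negative cells, 2.12-fold higher. Its other measured probe set had a log2 ratio of -4.06, so its direction is not settled. The 5 with the largest differences were all lower. Lmo2 and Tal1, partners in the complex that Gata1 joins, were at 30.4 in Venus-positive cells and 222 in Venus-negative cells (7.29-fold) and at 22.9 in Venus-positive cells and 146 in Venus-negative cells (6.40-fold). Hemgn, hemogen, a nuclear protein of blood precursors, was at 3.15 in Venus-positive cells and 128 in Venus-negative cells, at least 5.69-fold lower. Add3, gamma adducin, and Myb, a factor of blood precursors, were 4.31-fold and 4.09-fold lower. The 4 measured probe sets of Add3 ran from 3.10-fold to 4.56-fold, and the 3 of Myb from 1.77-fold to 4.09-fold. Tal1 and Lmo2 also act in endothelial cells.

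Of 32 other heme and iron genes, 23 were measured, with a median log2 ratio of -0.52, beside -0.33 for all measured genes. At least 2-fold lower were 5, and 1 was at least 2-fold higher, beside 11.6% and 2.79% of all measured genes. Relative to the median gene, 4 were 2-fold lower and 1 was 2-fold higher, beside 6.45% and 5.06%. Heph, hephaestin, which oxidises iron for export, was at 71.8 in Venus-positive cells and 568 in Venus-negative cells, 7.91-fold lower. Slc40a1, the iron exporter ferroportin, was 2.90-fold lower, Slc48a1, a heme transporter, 2.56-fold lower and Ncoa4, the receptor for ferritin breakdown, 2.55-fold lower. Flvcr2, a transporter of the feline leukemia virus receptor family, was at 55.8 in Venus-positive cells and 19.5 in Venus-negative cells, at least 2.48-fold higher. A contrast chosen after its values were seen is that of the mitochondrial iron carriers: Slc25a28, mitoferrin 2 of other cells, was at 96.8 in Venus-positive cells and 108 in Venus-negative cells, beside the 6.07-fold of Slc25a37.

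Markers of other cell types were mostly lower as well, with the hepatocyte marker Ttr as an exception. All 10 macrophage and leukocyte markers were measured and 9 were at least 2-fold lower, where 11.6% of all measured genes were. Their signals summed to 248 in Venus-positive cells and 2141 in Venus-negative cells. In 6 of the 10 the Venus-positive signal lay below the floor, so that a lower value was built into their selection. The same held for 2 endothelial, 1 mast cell, 2 progenitor and 3 hepatocyte markers. Sums here include signals below the floor as deposited. Macrophages also express Hmox1, Slc40a1 and Fth1. All 6 endothelial markers were at least 2-fold lower, with sums of 130.1 in Venus-positive cells and 659 in Venus-negative cells. Of 6 mast cell markers on the array 3 were measured and all 3 were at least 2-fold lower, with sums of 84.7 in Venus-positive cells and 756 in Venus-negative cells. Of 6 megakaryocyte and platelet markers 2 were measured, of which Pf4 was 4.62-fold lower and Itga2b was at 59.6 in Venus-positive cells and 66.7 in Venus-negative cells. Of 5 blood progenitor markers 4 were measured and 3 were at least 2-fold lower. All 4 hepatocyte markers on the array were measured, and they differed among themselves. Alb and Afp were at least 4.83-fold and 9.90-fold lower and Apoa1 at least 1.29-fold lower, while Ttr was at 55.1 in Venus-positive cells and 34.6 in Venus-negative cells, 1.59-fold higher. Relative to the median gene, Ttr lay just past 2-fold higher. None of these markers was listed at 0, and their part in the erythroid result was not tested.

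**Figure D4:**
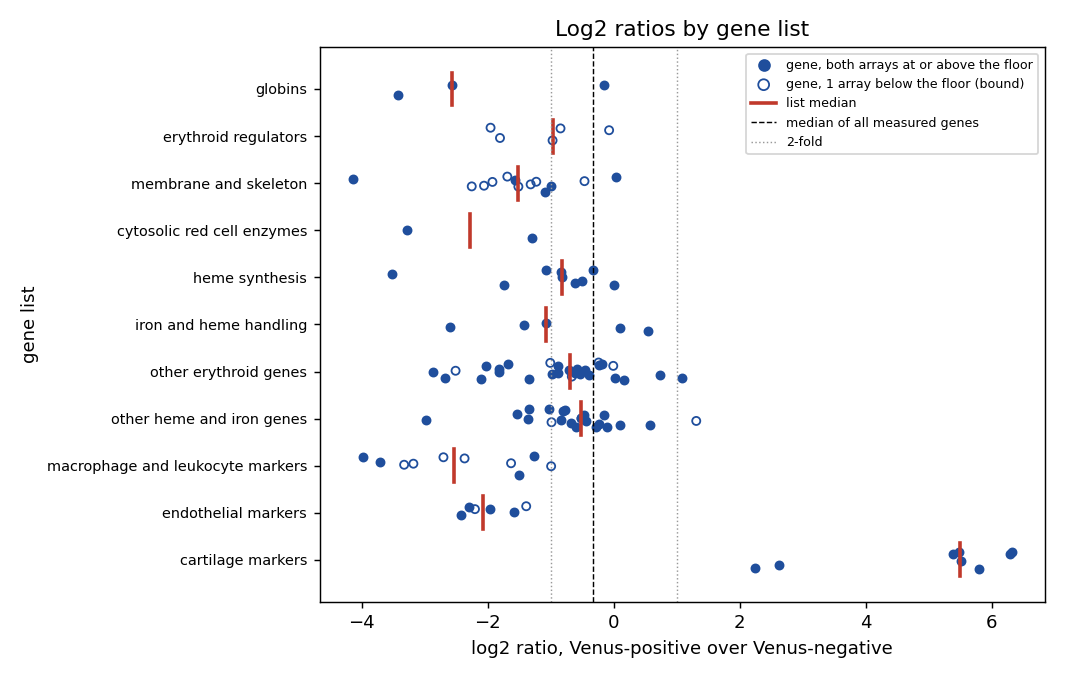
Venus-positive over Venus-negative signal as a log2 ratio for each measured gene of the 6 member groups and of 5 further lists, with the list median in red, the median of all measured genes dashed and 2-fold dotted. The globin and membrane medians lie at -2.56 and -1.51, the heme synthesis median at -0.82, and the cartilage markers lie between 2.24 and 6.31.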

How the data were processed

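Expression was measured in 1 Venus-positive and 1 Venus-negative sample, grouped by the cell type in the labels, with 100 ng of total RNA per array. The deposited intensity values were computed by the authors with MAS5, per the submitters' processing notes; the scaling target, like the version and the detection calls, is not given in the sources used here. Trimmed means (2% at each end) were 109 for Venus-positive and 133 for Venus-negative cells. Precision is limited by the number of arrays, 1 in each group, and no p-value was computed.

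The 64 control probe sets were left out, which removed 3 named for Tfrc. Of the other 45037 probe sets, 34945 had 1 symbol in the platform annotation, 932 several and 9160 none; only the first kind was used. All 40 members with a probe set matched a gene of the RefSeq table (GRCm38.p6). Signals below the floor of 22.5 were set to it before log2, and a gene was represented by its probe set of highest mean log2 signal. All members were named, and from each wider list the 5 genes with the largest absolute log2 ratio. Members and lists were chosen with earlier results of these data known. Alternatives were centring, quantile normalization, 2 other floors, log2(signal + 16), the mean over probe sets, and leaving out _x_at and _s_at probe sets. Python 3.11.15, numpy 2.4.6 and pandas 2.3.3 were used, and the procedure was tested on simulated data. There, changes were planted only in genes bright in Venus-negative cells, so the simulation did not cover dim members limited by the floor.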

Additional observations from a re-analysis of the deposited data

How the results depend on the processing

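No alternative turned the sign of a member that was at least 2-fold lower, and under each of the 7 alternatives 0 members were at least 2-fold higher. With a floor of 114, the 75th percentile, 10 of 19 measured members were at least 2-fold lower, in place of 22 of 37. Of all genes measured with that floor, 475 of 7428 were, in place of 1368 of 11789. The median log2 ratio of the mainly erythroid members was -2.60 with a floor of 5.19, the 25th percentile, and -2.56, over 5 genes, with the higher floor, in place of -1.80. The median of members used by most cells was -0.35 with quantile normalization, in place of -0.71. The regulator median was -2.10 with the lower floor and -1.33 with log2(signal + 16), in place of -0.97. The membrane median was -1.16 with quantile normalization and -2.50 with the lower floor, in place of -1.51. The median of the cytosolic enzymes, with Car1 added, was -1.83 with the lower floor and -1.24 with log2(signal + 16), in place of -2.28. A value counted as kept if its shift stayed under 0.35, the pooled spread (SD) of log2 ratios within genes that had several probe sets. With centring, counts over all 11789 measured genes were 760 lower and 597 higher, against 1368 and 329 as deposited. With the lower floor they were 2534 and 672 of 15746 measured genes, and with the higher floor 475 and 181 of 7428. With quantile normalization they were 766 and 599 of 11696. The list of other erythroid genes held 5 lower genes of 21 measured with the higher floor. That of other heme and iron genes held 3 of 20 with the higher floor and 3 of 23 with quantile normalization. No paired analysis was possible because the labels give no replicate numbers and each group has 1 array, and for the same reason no replicate could be left out. Values of dim members are limited by the floor, since 13 of the 37 were below it in Venus-positive cells.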

Other observations

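Probe sets annotated to several adult globin symbols were kept out of the gene counts. The 3 for adult alpha globin disagreed: one was at 1657 in Venus-positive cells and 7264 in Venus-negative cells, 4.38-fold lower, while the others were at 8797 and 8865 in Venus-positive cells, against 6803 and 7875 in Venus-negative cells. The 1 probe set for adult beta globin was at 5594 in Venus-positive cells and 7609 in Venus-negative cells, 1.36-fold lower. Among probe sets with 1 adult globin symbol, those of Hbb-b2 opposed each other, with log2 ratios of 1.08 and -4.06, and that of Hba-a2 was at 49.3 in Venus-positive cells and 75.4 in Venus-negative cells. Hbb-b2 and Hba-a2 were named after their values were seen. Adult globin copies are near-identical, so their probes can share targets, and the deposited values leave the size of the adult globin difference between fractions unsettled.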
